A study of Mus musculus with 23 samples.

Results

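Libraries of high and of low striatal content were set against each other across the genome. The 23 RNA-seq libraries of mouse orbitofrontal cortex (OFC) were ranked by their normalized count of Ppp1r1b, which encodes DARPP-32, a protein phosphatase inhibitor of striatal projection neurons. The 6 highest libraries formed the high side and the 6 lowest the low side, whatever their treatment, so 12 of 23 libraries were members and 11 lay between the sides. Mice were male wild-type C57BL/6J animals of 8 weeks. All received an AAV6 virus on day 0, and OFC tissue was collected on day 28. The virus carried a GFAP promoter, active in astrocytes, that drove either ZBTB7A, a zinc-finger transcription factor, with GFP or GFP without ZBTB7A. Infected tissue was dissected from the OFC, so a library holds all cells of the piece. Stressed mice had a brief social defeat on day 21 and controls did not, and mice were tested for behaviour between day 22 and day 27. The 4 label groups were ZBTB7A stress (n = 5), ZBTB7A control (n = 5), GFP stress (n = 8) and GFP control (n = 5). Libraries are named here by the group their labels give and their title number.

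The striatum lies below and behind the OFC, and its main neurons are GABAergic medium spiny neurons rather than the glutamatergic pyramidal cells of cortex. Medium spiny neurons of the direct pathway carry the D1 dopamine receptor with dynorphin and substance P, and those of the indirect pathway carry the D2 dopamine receptor and the adenosine receptor encoded by Adora2a, with enkephalin. Both types relay dopamine and adenosine signals through cAMP, and DARPP-32 is a known target of that cascade. A small class of large cholinergic interneurons supplies striatal acetylcholine. Cortical neurons and interneurons share some of these genes at lower levels, so no marker is absent from cortex as a matter of course.

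The sides were chosen from measured values of Ppp1r1b, so its levels are a description. On the high side Ppp1r1b had 53879 normalized counts in ZBTB7A control 6, 31480 in GFP control 11, 30237 in ZBTB7A stress 7, 26502 in ZBTB7A stress 9, 19046 in GFP stress 13 and 17365 in GFP control 2. On the low side it had 6663 in GFP control 1, 4114 in ZBTB7A control 15, 2905 in GFP stress 5, 2751 in GFP stress 21, 2385 in GFP stress 12 and 2008 in GFP stress 20. The medians were 28370 and 2828 normalized counts on the high and low sides. Just outside the sides stood GFP control 19 with 15966 and ZBTB7A control 24 with 7212, so neither border was a wide gap. Recovered sequencing reads were 12.5 to 44.9 M per library on the high side (median 25.1 M) and 13.5 to 51.9 M on the low side (median 25.02 M), and depth did not separate them.

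The high side held 2 of the 5 ZBTB7A stress, 1 of the 5 ZBTB7A control, 1 of the 8 GFP stress and 2 of the 5 GFP control libraries. The low side held 0 of 5, 1 of 5, 4 of 8 and 1 of 5 of the same groups. ZBTB7A virus was thus given in 3 high and 1 low library, a difference with p = 0.545 (two-sided Fisher's exact test, adjusted p = 1 over 2 tests). Stress was given in 3 high and 4 low libraries, with p = 1 by the same exact test. No low library came from ZBTB7A stress, so treatment and striatal content could be compared within the other 3 label groups only. The 4 lowest libraries by Ppp1r1b were all GFP stress, so at that end striatal content and label group could not be told apart. With 4 libraries a side, ZBTB7A virus was given in 3 high and 0 low libraries (p = 0.143, two-sided Fisher's exact test). At that cut, stress was given in 2 high and 4 low libraries (p = 0.429, two-sided Fisher's exact test).

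The other 3 striatal markers given for these libraries checked the label. Adora2a, the adenosine receptor of indirect-pathway neurons, had a lowest, median and highest value of 2858, 4301 and 9263 normalized counts on the high side and 107, 202 and 1309 on the low side. Pde10a, a phosphodiesterase that breaks down cAMP in medium spiny neurons, had 9926, 13484 and 23825 on the high side and 1547, 1703 and 7387 on the low side. Neither gene's sides overlapped. Penk, the precursor of enkephalin, had 6115, 13019 and 21595 on the high side and 1115, 1574 and 7149.9 on the low side, which overlapped by a single library on each side. Differences of mean log2(value + 1) were 4.07 for Adora2a, 2.58 for Pde10a and 2.65 for Penk. Their exact two-sided permutation p-values were 0.00216, 0.00216 and 0.00433, where 0.00216 is the smallest that 6 against 6 allows.

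A pair of libraries stood apart from their side on these markers. GFP control 11 ranked 2 of 23 by Ppp1r1b but 12 by Penk, 7 by Pde10a and 4 by Adora2a. GFP control 1 ranked 18 by Ppp1r1b but 9 by Penk, 13 by Pde10a and 14 by Adora2a. GFP control 1 also had the highest summed choroid plexus markers of all libraries, 19362 normalized counts, against 5181 to 7113 on the high side and 4732 to 5501 in the other low libraries. Its summed septal markers were 5760, against 1483 to 6406 on the high side and 1269 to 2115 in the other low libraries. Among the libraries between the sides, GFP control 10 had summed choroid plexus markers of 16283 and ranked 12 by Ppp1r1b but 18 by each other marker. The comparisons were therefore repeated without GFP control 1 and GFP control 11, a repeat chosen after seeing the data. It removes libraries that blur the sides, so larger list counts without them are a description and no added support. Ranking by Penk or by Pde10a gave the same pair of sides, which differed from the Ppp1r1b sides in those 2 members and in GFP stress 13.

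**Figure D1:**
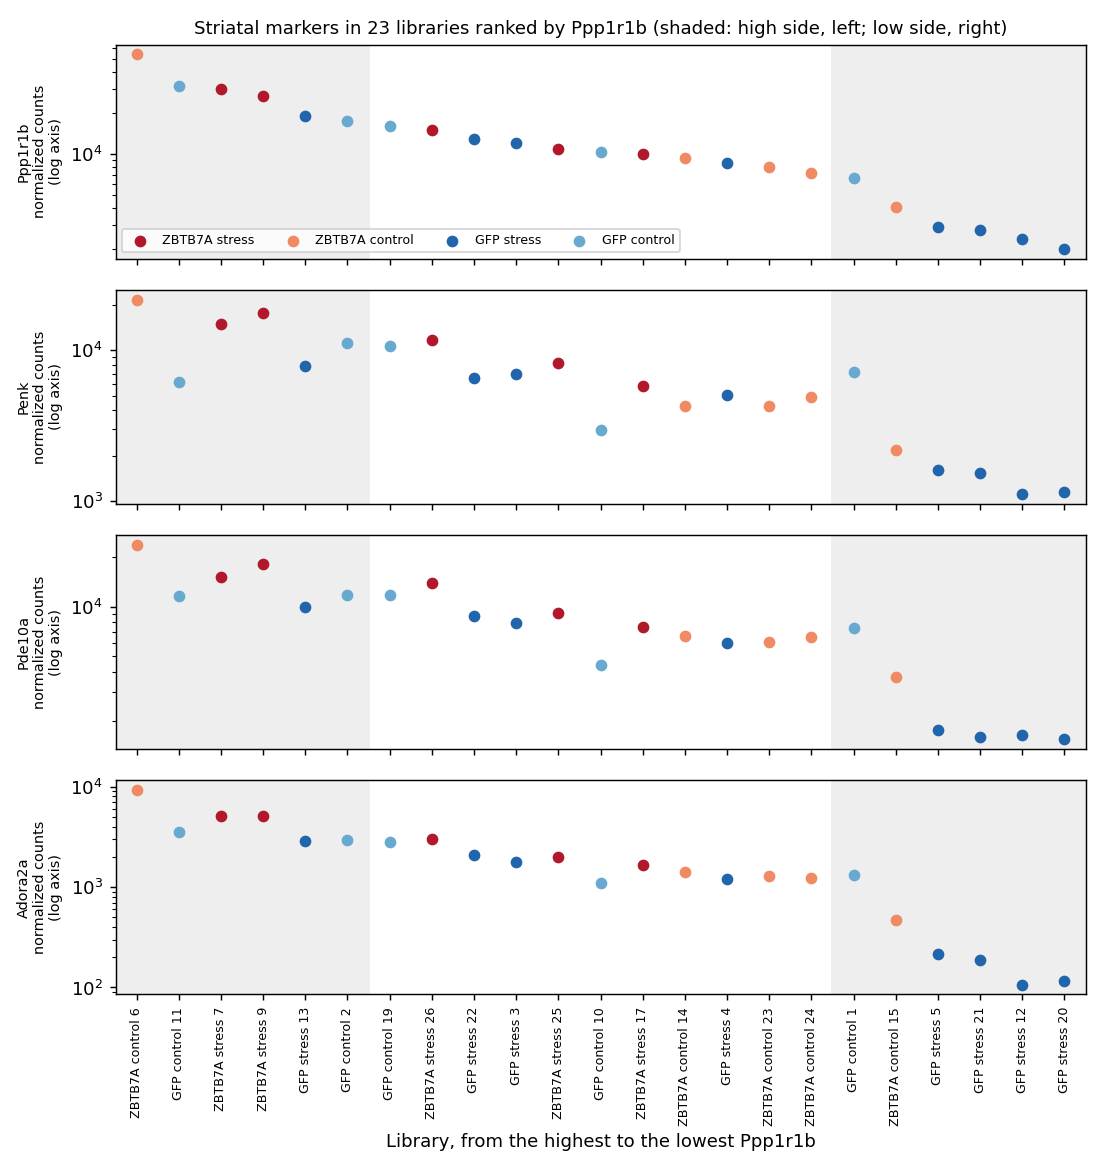
Normalized counts (log axes) of Ppp1r1b, Penk, Pde10a and Adora2a in each of the 23 libraries, ordered from the highest to the lowest Ppp1r1b; colours give the label group and shading marks the 6 high (left) and 6 low (right) libraries. GFP control 1 stands above the other 5 low libraries in all 4 panels, with 7149.9 normalized counts of Penk, and GFP control 11 has the least Penk of the high side, 6115.

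Genes that moved together with Ppp1r1b included receptors of the cAMP pathway, so the 250 bases before the start site of genes in the striatal lists were searched for cAMP response elements (RefSeq sequences, GRCm38.p6). Both strands were searched for TGACGTCA, for its variant TGCGTCA and for the core TGACG, which lies within the other 2 motifs when both strands are read. Of 65 promoters of 42 genes in the striatal lists, 1 held TGACGTCA, 3 held TGCGTCA and 14 held TGACG. These lists have 51 tested members, and Penk and some others had no entry among the promoters, so the counts leave them out. Over all 32851 promoters the shares were 1.55%, 1.75% and 17.8%, and over promoters of the genes tested 2.37%, 2.63% and 24.5%. Shares among promoters of genes called higher were 1.86%, 2.23% and 18.8%, and among those of genes called lower 3.31%, 3.31% and 27.3%. The promoters of Gpr6, an orphan receptor of indirect-pathway neurons, and Tac1, the precursor of substance P, are shown as an indirect- and a direct-pathway example with a motif in capitals. The promoter of Drd2, the D2 receptor, is shown as a gene with a large difference and neither full motif. Gpr6 lies at chr10:41072291-41072540 on the minus strand, with its motif 78 to 71 bases before the start. Tac1 lies at chr6:7554811-7555060 on the plus strand, with its motif 199 to 193 bases before the start, and Drd2 lies at chr9:49340153-49340402 on the plus strand. A match of letters is a description and not a binding site.
Gpr6: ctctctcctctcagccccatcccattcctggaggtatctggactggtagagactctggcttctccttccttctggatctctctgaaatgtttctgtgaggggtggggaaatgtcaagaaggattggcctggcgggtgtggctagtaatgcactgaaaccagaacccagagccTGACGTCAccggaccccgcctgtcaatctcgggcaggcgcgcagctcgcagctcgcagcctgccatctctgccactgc
Tac1: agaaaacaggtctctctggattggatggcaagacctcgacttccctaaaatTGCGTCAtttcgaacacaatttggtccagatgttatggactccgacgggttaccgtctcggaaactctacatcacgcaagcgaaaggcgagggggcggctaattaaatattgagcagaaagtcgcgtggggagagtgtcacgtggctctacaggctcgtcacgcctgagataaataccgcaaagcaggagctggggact
Drd2: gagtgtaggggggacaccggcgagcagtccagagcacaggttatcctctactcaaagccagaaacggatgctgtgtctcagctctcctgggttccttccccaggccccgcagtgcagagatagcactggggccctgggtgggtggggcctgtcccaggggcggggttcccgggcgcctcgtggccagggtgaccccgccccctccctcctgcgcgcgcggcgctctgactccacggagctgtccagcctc

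Across the genome, 16384 genes other than Ppp1r1b were compared between the sides, each of which reached 10 normalized counts in no fewer than 5 libraries. A gene was called at an adjusted p under 0.05 in a limma fit of log2(value + 1), with Benjamini-Hochberg adjustment over all genes. On this criterion 2446 genes were called (14.9%), of which 1279 were higher on the high side (7.81%) and 1167 lower (7.12%). Because the sides were cut from the same libraries by Ppp1r1b, these calls say which genes moved with Ppp1r1b, and they are no test of a treatment. Higher genes differed by more: 265 of them passed 2-fold and 83 passed 4-fold, against 52 and 1 of the lower genes. Sides did not overlap at all for 907 of the genes tested (5.54%), with 417 higher (2.55%) and 490 lower (2.99%). The median log2 fold change was 0.54 for the higher calls, -0.34 for the lower calls and 0.01 over all genes tested. Without GFP control 1 and GFP control 11 the count was 4987 of the 16384 genes, of which 2623 were higher and 2364 lower. List counts from that repeat stand against these larger totals. Other list counts stand against 7.81% higher and 7.12% lower. In bulk tissue, fewer cells of a type and less RNA per cell cannot be told apart.

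Genes shared by both types of medium spiny neuron were higher on the high side in 20 of 21 tested members, against a background of 7.81% of all genes, with a list median of 1.57 on the log2 scale. This list and those below were chosen with earlier results of these data known, so such shares are a description. Bcl11b, a transcription factor needed for medium spiny neuron differentiation, had 4160.0, 5427 and 6499 normalized counts (lowest, median and highest) on the high side and 1954, 2502 and 2784 on the low side. Its log2 fold change was 1.12 ± 0.11 (SE, n = 6 each, adjusted p = 0.000345, limma). Adcy5, the main adenylyl cyclase of striatum, had 12219, 15060.4 and 23985 on the high side and 3774, 4214 and 7645 on the low side. Rasd2, a small G protein enriched in striatum, reached 1.87 ± 0.22 (adjusted p = 0.00103, limma). Sides did not overlap for any of these 3 genes. The member that did not pass was Rgs7bp, which anchors RGS proteins to the membrane, at -0.07 ± 0.08 (adjusted p = 0.574). Of the 20 calls, 19 were kept whichever of the 12 libraries was left out, and 20 were made without GFP control 1 and GFP control 11. With label groups as covariates 19 of the 21 members were called higher, against 4.75% of all genes.

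Direct-pathway genes were higher in 6 of 8 tested members (list median 1.75), against 7.81% of all genes. Drd1, the D1 dopamine receptor, had 1634, 2372 and 3462 normalized counts on the high side and 273, 315 and 1293 on the low side. Its log2 fold change was 2.46 ± 0.36 (adjusted p = 0.00213, limma), and the sides did not overlap, although GFP control 1 held the low side's 1293. Pdyn, the precursor of dynorphin, had 517, 779 and 965 on the high side and 225, 287 and 343 on the low side, a log2 fold change of 1.37 ± 0.17. Tac1 reached 2.12 ± 0.28 and Slc35d3, a transporter-like protein with a known part in D1 receptor trafficking, 3.51 ± 0.52. Sfxn1, a mitochondrial serine transporter, and Eya1, a transcriptional coactivator, did not pass and stood at -0.02 and -0.13. With label groups as covariates 5 of the 8 members were called higher.

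Indirect-pathway genes were higher in 6 of 8 tested members (list median 2.12), and held the 2 largest log2 fold changes of the 3 medium spiny neuron lists, Drd2 and Adora2a. Drd2 had 1300.5, 1816 and 3355 normalized counts on the high side and 30.5, 60.3 and 729.9 on the low side. The log2 fold change of Drd2 was 4.34 ± 0.66 (adjusted p = 0.00274, limma), and that of Gpr6 was 3.68 ± 0.47 (adjusted p = 0.0014). Gpr52, an orphan receptor that raises cAMP, reached 1.59 ± 0.28 with sides that overlapped at 232 and 261 normalized counts. Gucy1a1, a subunit of the nitric oxide receptor, stood at 0.01 and Ttc12, a cilia gene next to Drd2, at 0.85, and neither passed. With label groups as covariates 5 of the 8 members were called higher. A difference between the direct and the indirect list was not tested.

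Compartment markers of striatum moved less evenly. Of 5 striosome genes, 3 were called higher (Lypd1, Sema5b and Kremen1, at 0.88, 0.76 and 0.31), and each of these calls was lost when some libraries were left out, among them GFP stress 20. Kremen1 was the 1 gene of the 5 called with label groups as covariates. Oprm1, the mu opioid receptor that defines striosomes in rodents, did not pass at 0.52. Of 3 matrix genes, Rasgrp2, a calcium-regulated activator of Rap proteins, was higher by 2.02 ± 0.25 (adjusted p = 0.00116, limma), whereas Calb1 and Epha4 stood at -0.02 and -0.27.

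**Figure D2:**
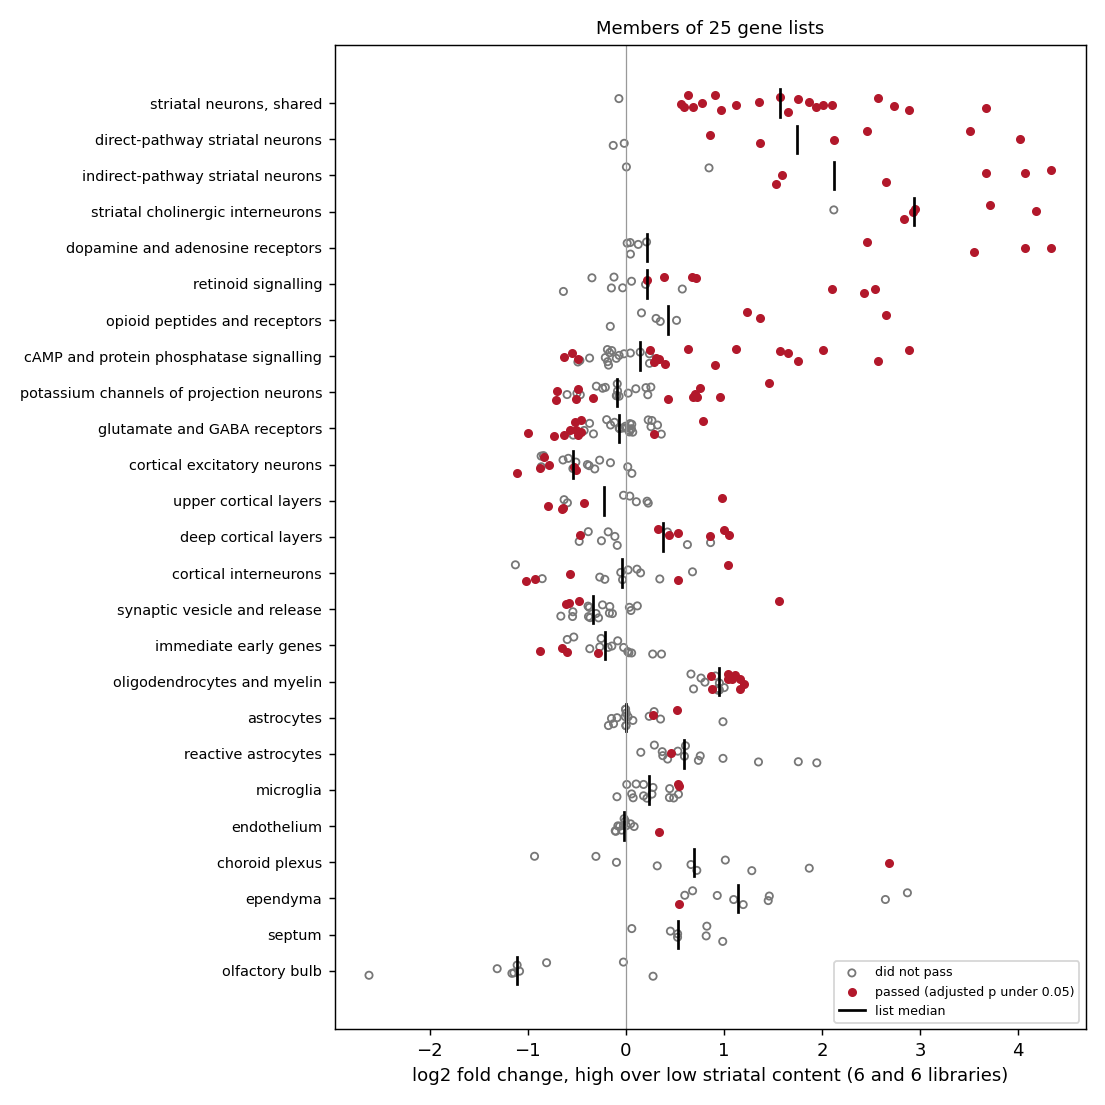
Log2 fold change, high over low side (x axis, 6 and 6 libraries), of each tested member of 25 gene lists; filled red points passed an adjusted p under 0.05, open points did not, and black bars are list medians. The medium spiny and cholinergic lists lie to the right, with medians of 1.57 to 2.94, while cortical excitatory neurons (median -0.54) and vesicle genes (median -0.33) lie mostly to the left.

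Cholinergic interneuron genes were higher in 5 of 6 tested members (list median 2.94). Chat, which makes acetylcholine, had 75.5, 229.9 and 448 normalized counts on the high side and 6.4, 9.23 and 169 on the low side, a log2 fold change of 3.71 ± 0.69 (adjusted p = 0.00671, limma). The low side's 169 was GFP control 1, while the other 5 low libraries had 6.4 to 12.1. Slc18a3, the vesicular acetylcholine transporter, and Slc5a7, the choline transporter, showed the same layout, with 81.9 and 329 in GFP control 1. Their log2 fold changes were 2.92 ± 0.57 and 2.83 ± 0.62. Without GFP control 1 and GFP control 11, Chat stood at 4.51 and 6 of 6 members were called. With label groups as covariates 2 of 6 were called, and Ecel1 and Slc5a7 had adjusted p-values of 0.0648 and 0.0736 (limma). Cholinergic neurons also lie in the septum, whose 7 tested markers were all above 0 between the sides, with none called. Summed septal markers had a median of 3080 normalized counts on the high side and 1550 on the low side, and their highest value, 6406, was in ZBTB7A control 6, the library with the most Chat. The part of septal tissue in the Chat values was not tested.

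Among dopamine and adenosine receptors, the 4 called higher of 9 were Drd1, Drd2, Adora2a and Drd3. Drd3, the D3 receptor of the ventral striatum and islands of Calleja, was scarce, with 31.7, 42.6 and 68.2 normalized counts on the high side and 0.636, 3.17 and 10.1 on the low side. Its log2 fold change was 3.55 ± 0.43 (adjusted p = 0.00103, limma). Adora1, the widely expressed A1 receptor, and Drd5 stood at 0.01 and 0.13, neither of which passed. Of 8 opioid genes 3 were called higher, namely Pdyn, Penk and Oprk1, the kappa receptor that binds dynorphin. Oprk1 had 302, 511 and 629 normalized counts on the high side and 98.9, 180.2 and 366 on the low side, with overlapping sides and a log2 fold change of 1.24 ± 0.29. The receptors Oprd1 and Oprl1 and the precursor Pomc did not pass.

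Retinoid signalling genes were called higher in 7 of 15 members, with a low list median of 0.21. Rxrg, a retinoid X receptor of medium spiny neurons, had 894, 1133 and 1818 normalized counts on the high side and 129.8, 176 and 472 on the low side, a log2 fold change of 2.54 ± 0.29 (adjusted p = 0.00103, limma). Rarb, a retinoic acid receptor of striatum, was called higher with 639, 1116 and 1699.5 on the high side and 179, 195 and 647 on the low side, and Crabp1, a cytoplasmic retinoic acid carrier, reached 2.43 ± 0.50. The synthesis enzymes Aldh1a1, Aldh1a2 and Aldh1a3 stood at -0.15, -0.35 and -0.03, and none of them passed. Of the 15 retinoid genes 3 were called with label groups as covariates.

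The cAMP and protein phosphatase list split by member: 14 of 33 were called higher and 3 lower (list median 0.15), and 7 of the higher members also stand in the list shared by medium spiny neurons. Pde1b, a calcium-dependent phosphodiesterase, had 9651, 13231 and 20258 normalized counts on the high side and 3489.6, 3728 and 7287 on the low side (log2 fold change 1.65 ± 0.22). Gng7, the G protein gamma subunit that pairs with the striatal stimulatory alpha subunit Gnal, reached 2.01 ± 0.27, and Gnal itself 0.91. The lower members were Adcy2, Adcy8 and Pde4d, at -0.55, -0.63 and -0.49, enzymes that also make or break down cAMP. Adenylyl cyclases differed in sign, with Adcy5 higher and Adcy2 and Adcy8 lower. Without GFP control 1 and GFP control 11 the list had 14 higher and 13 lower calls, where all 16384 genes gave 2623 and 2364. Among 16 RGS proteins, which shorten G protein signals, Rgs9 and Rgs8 were higher at 2.74 and 0.59, and Rgs7 and Rgs6 were lower at -0.50 and -0.55. Over all genes the shares called were 7.81% higher and 7.12% lower.

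**Figure D3:**
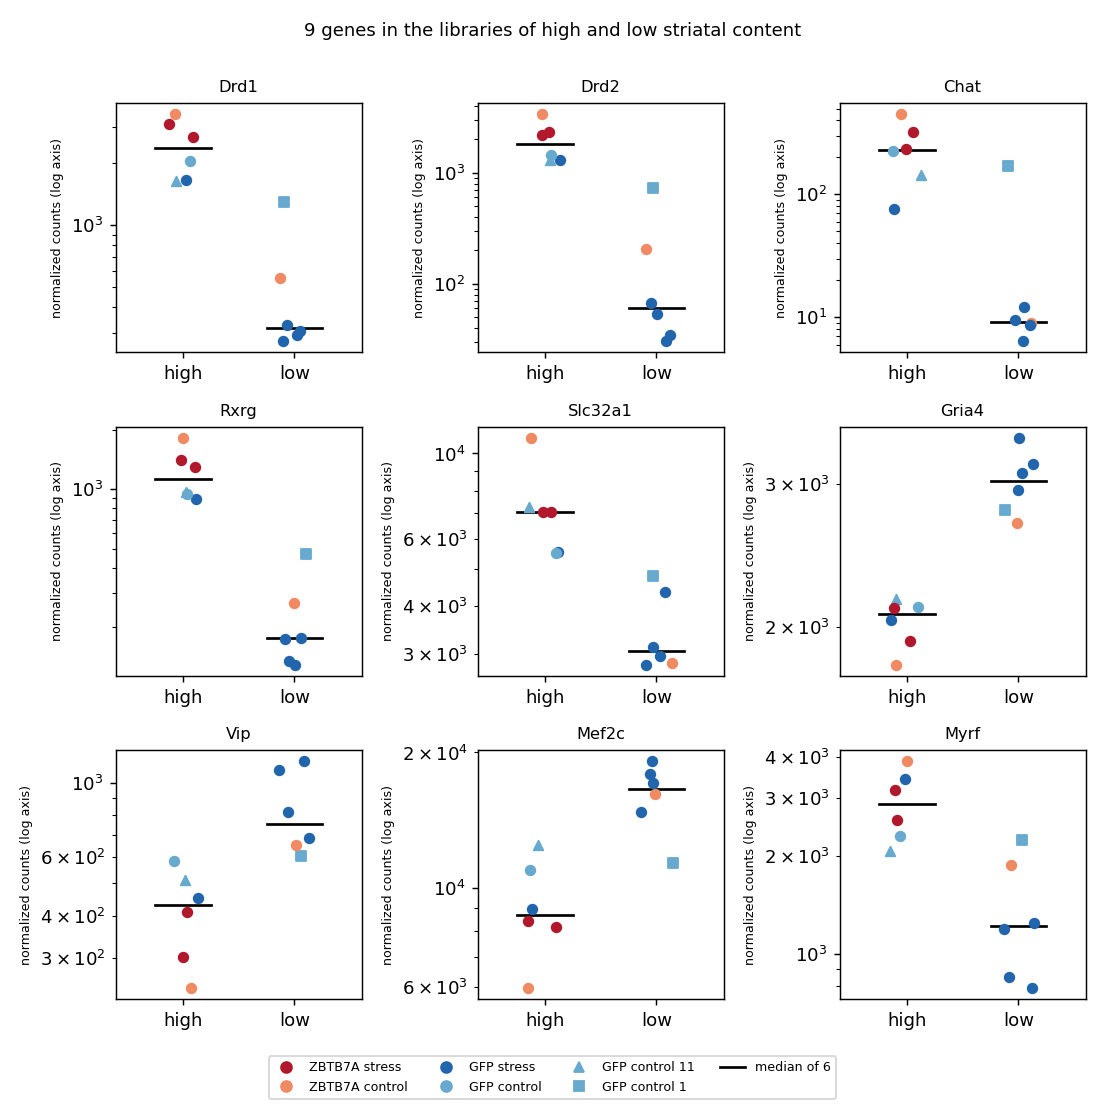
Normalized counts (log axes) of 9 genes in the 6 high and 6 low libraries; each point is a library, colours give the label group, the triangle and square mark GFP control 11 and GFP control 1, and bars are medians of 6. Drd1, Drd2, Rxrg, Slc32a1, Gria4 and Vip do not overlap between the sides, whereas Chat, Mef2c and Myrf overlap through GFP control 1.

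Cortical genes moved less and mostly the other way. Excitatory neuron genes were below 0 in 18 of 20 members and called lower in 6, against a background of 7.12%, with a list median of -0.54. Mef2c, an activity-regulated transcription factor, had 5969, 8698 and 12459 normalized counts on the high side and 11370.3, 16621 and 19099.5 on the low side, a log2 fold change of -0.83 ± 0.17 (adjusted p = 0.00845, limma). The overlap of its sides came from GFP control 11 above and GFP control 1 below. Nrn1, a growth-promoting membrane protein of excitatory neurons, had 804, 2089 and 2553 on the high side and 2591, 4252 and 4784 on the low side, with no overlap. Slc17a7, the vesicular glutamate transporter of cortex, did not pass at -0.54 ± 0.35 (adjusted p = 0.301), with 10938 to 57296 normalized counts on the high side and 22608 to 53009 on the low side. Every library of both sides held it at 10938 or more. Leaving out GFP control 1 and GFP control 11, 15 of 20 members were called lower. With label groups as covariates none of the 6 calls was kept, with adjusted p-values of 0.0519 for Mef2c and 0.0548 for Nrn1 (limma).

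Layer markers of cortex differed in direction. Of 12 upper-layer genes 4 were called lower and 1 higher: Rorb, a nuclear receptor of layer 4, had 339, 494 and 593 normalized counts on the high side and 636, 772 and 894 on the low side, while Pou3f1 was higher at 0.98 ± 0.18. Of 16 deep-layer genes 6 were called higher and 1 lower, against 7.81% and 7.12% of all genes. Syt6, a synaptotagmin of layer 6, had 1330.1, 1704 and 2213 on the high side and 531, 827 and 1255 on the low side (log2 fold change 1.00 ± 0.20). Foxp2, a layer 6 factor that medium spiny neurons also express, stood at 1.05 ± 0.21, and Etv1, a factor of layer 5, at -0.46 ± 0.08. Once label groups were covariates, 1 deep-layer gene was called higher and 1 lower, and Syt6 had an adjusted p of 0.0715 (limma).

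Genes of GABAergic neurons showed no common direction, with 2 of 16 higher and 3 lower, against 7.81% and 7.12% of all genes. Slc32a1, the vesicular GABA transporter used by interneurons and medium spiny neurons, had 5522, 7057 and 10977 normalized counts on the high side and 2822, 3059 and 4785 on the low side, a log2 fold change of 1.05 ± 0.18 (adjusted p = 0.00477, limma). Vip, a peptide of a cortical interneuron class, had 243, 432 and 583 on the high side and 606, 751 and 1159.8 on the low side, a log2 fold change of -1.02 ± 0.23. Pvalb, which marks fast-spiking interneurons, was lower at -0.93 ± 0.25. The GABA-making enzymes Gad1 and Gad2 did not pass, at 0.15 and 0.68. Adding label groups as covariates left 1 of the 16 called higher and none lower, and Vip had an adjusted p of 0.0514 (limma).

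Receptor and channel genes moved in both directions. Glutamate and GABA receptor genes gave 9 lower and 2 higher calls of 34. Gria4, an AMPA receptor subunit, had 1799, 2078 and 2167 normalized counts on the high side and 2687, 3024 and 3418 on the low side, a log2 fold change of -0.57 ± 0.07 (adjusted p = 0.00103, limma). Grm4, a presynaptic glutamate receptor, was higher at 0.79 ± 0.10. Potassium channel genes split into 7 higher, among them Kcna5 (1.46), Kcnip2 (0.68) and Kcnk2 (0.43), and 5 lower, among them Kcnc2 (-0.71) and Kcnj3 (-0.70), of 28. Of 20 vesicle genes, Sv2c, the vesicle protein isoform of basal ganglia, was higher at 1.56 ± 0.28, and Vamp1, Snap25 and Syt1 were lower at -0.61, -0.57 and -0.47. The lower vesicle calls were lost with label groups as covariates and numbered 16 without GFP control 1 and GFP control 11. Without these libraries channel genes gave 7 higher and 12 lower calls, and receptor genes 5 and 13. All 16384 genes gave 2623 higher and 2364 lower calls in that repeat.

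Glial lists differed in how far they moved with the sides. Oligodendrocyte and myelin genes were above 0 in 20 of 20 members and called higher in 10, with a list median of 0.95. Myrf, the transcription factor that starts myelination, had 2070.5, 2874 and 3879.8 normalized counts on the high side and 788, 1218 and 2229 on the low side, a log2 fold change of 1.16 ± 0.25 (adjusted p = 0.0121, limma). Summed over the list, libraries ranged from 113270 to 237499 normalized counts on the high side and from 51994 to 201711 on the low side, where GFP control 1 was the top and the next was 115458. Calls held in 3 of the 10 members whichever library was left out, and 20 of 20 were called without GFP control 1 and GFP control 11. With label groups as covariates 1 of 20 was called, and Myrf had an adjusted p of 0.0578 (limma). Astrocyte genes had a list median of 0.00, with 2 of 18 called higher, against 7.81% of all genes. Both calls, Sox9 and Ntsr2, were lost on leaving out any of several libraries. With label groups as covariates both were called (adjusted p = 0.0184 and 0.0420, limma), where 4.75% of all genes were called higher. Reactive astrocyte genes were above 0 in 15 of 15 members, of which 1, Aspg, was called, and 10 were called without GFP control 1 and GFP control 11. Their summed level was 6433 in GFP control 11, against 16676 to 28157 in the other high libraries and 5727 to 15837 on the low side.

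Calls among markers of the other tissues depended on which libraries were included. Choroid plexus, ependyma, endothelium and mural cells gave 1 higher call each, of 10, 10, 12 and 11 tested, against 7.81% of all genes. With label groups as covariates these lists gave 0, 1, 1 and 1 higher calls, against 4.75% of all genes. The higher calls were 9 of 10 for ependyma, 6 of 10 for choroid plexus and 4 of 7 for septum without GFP control 1 and GFP control 11. That repeat called 2623 of all 16384 genes higher. It was chosen after seeing such markers in these libraries, so the larger counts are a description only. The choroid plexus call, Clic6, a chloride channel protein, had 105, 199 and 389.9 normalized counts on the high side and 10.4, 22.2 and 410.0 on the low side, with the 410.0 in GFP control 1. The 5 lists of septum, olfactory bulb, meninges, blood and oxidative phosphorylation gave 0 calls among 53 members with limma, 6 at an unadjusted p under 0.05, 2 with edgeR and 6 with DESeq2. Olfactory bulb genes held 2 of the edgeR and 5 of the DESeq2 calls, where all genes gave 2411 and 3430. Of their 9 tested members 8 were below 0 (list median -1.11), and 8 had a slope below 0 in the 11 libraries between. Summed olfactory bulb markers were 2639 to 3508 normalized counts on the high side and 2421 to 9764 on the low side, highest in GFP stress 21. GFP stress 13 had summed meningeal markers of 26538 normalized counts, against 2531 to 5032 in the other high libraries and 2799 to 6035 on the low side. Dlx5 and Dlx6, homeobox factors of GABAergic precursors and forebrain GABAergic neurons, were higher at 1.27 and 1.30, calls that were lost with label groups as covariates (adjusted p = 0.0507 and 0.118, limma).

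Genes in no list were ranked by size among calls with a mean of 100 or more and sides that did not overlap, which 297 higher and 412 lower genes met. The 8 with the largest positive log2 fold change ran from 1.94 to 3.63. They included Syndig1l, a striatal relative of a synapse differentiation gene (3.63), Cd4, a T cell co-receptor (3.61), and Zfp503, a zinc-finger factor of the developing striatum (2.37). Cd4 had 622, 787 and 1743 normalized counts on the high side and 33.0, 50.5 and 339 on the low side. Pou3f4, a homeobox factor, had 328, 428 and 799 on the high side and 96.9, 124 and 149 on the low side. The others were Scube3, Rem2, Prima1 and 1700003D09Rik, at 2.41, 2.24, 2.09 and 2.89. The 8 with the largest negative values ran from -0.95 to -1.28 and were Medag, Exph5, Cbln2, Ankrd34c, Plcxd2, Ccbe1, A830082K12Rik and Nectin3. Cbln2, a synapse organizer, had 194, 542 and 659 on the high side and 683, 1179 and 1334 on the low side.

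The 2 genes tied to the design were also read on these sides. Zbtb7a, the mouse counterpart of the virus gene, had 3357 to 3955 normalized counts (median 3793) in the 10 libraries labelled with ZBTB7A virus and 3033 to 4666 (median 3785) in the 13 labelled with GFP virus. Its values did not separate the viruses, and whether reads of the virus copy count in this row is not given in the sources used here. By side it had 3507, 3893 and 4666 normalized counts on the high side and 3033, 3767 and 4169 on the low side, a log2 fold change of 0.10 ± 0.09 (adjusted p = 0.449, limma). Gfap, the astrocyte filament gene, had 4329.6, 11539 and 18044 on the high side and 2839.7, 5735 and 11154 on the low side. Its log2 fold change was 0.99 ± 0.36 (adjusted p = 0.0773), and it passed without GFP control 11 at 1.26 (adjusted p = 0.0145) or without ZBTB7A control 15 at 1.20 (adjusted p = 0.0414).

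The 11 libraries between the sides, which the ranking left out of both, gave a separate reading. There Ppp1r1b spanned 7212 to 15966 normalized counts, and each gene's log2 value was fitted on log2 Ppp1r1b with limma. The adjusted threshold was passed by 1 gene (0.0061%), Tmem158, a membrane protein, with a slope of 0.74 ± 0.07 per doubling of Ppp1r1b (adjusted p = 0.000542), and 829 had an unadjusted p under 0.05 where 819.2 are due. Of these, 444 had a slope above 0 (2.71%) and 385 a slope below 0 (2.35%). The direction of the calls carried over: 1065 of the 1279 higher genes had a slope above 0 (83.3%, against 49.5% of all genes tested) and 1012 of the 1167 lower genes a slope below 0 (86.7%, against 50.5%). Genes are not independent, so these shares carry no test.

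Most genes of the striatal lists had a slope above 0. Shared medium spiny genes had a slope above 0 in 21 of 21 members, direct-pathway genes in 8 of 8, indirect-pathway genes in 8 of 8 and cholinergic genes in 6 of 6, although Rgs7bp, Sfxn1 and Eya1 were slightly below 0 between the sides. Of the striosome genes 4 of 5 and of the matrix genes 2 of 3 had a slope above 0, and Kremen1, called higher between the sides, had a slope of -0.14. Slopes per doubling of Ppp1r1b were 1.16 ± 0.20 for Drd2, 1.20 ± 0.19 for Adora2a, 0.99 ± 0.26 for Drd1 and 1.24 ± 0.33 for Penk, with adjusted p-values of 0.16, 0.106, 0.559 and 0.614. Slopes for Slc35d3 and Scube3 were 1.40 ± 0.21 and 0.88 ± 0.14, each with an adjusted p of 0.0801. Gria4 and Mef2c fell by 0.25 and 0.33 per doubling, without passing the adjusted threshold.

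Glial and activity genes had their own slopes in these 11 libraries. Reactive astrocyte genes, above 0 in 15 of 15 members between high and low, had a slope above 0 in 0 of 15. Oligodendrocyte genes had a slope above 0 in 20 of 20 members, but 0 reached an unadjusted p under 0.05 in that limma fit. Immediate early genes, which neurons switch on within minutes of activity, had a slope below 0 in 18 of 18 members, 10 of them at an unadjusted p under 0.05. Fos had a slope of -1.03 ± 0.29 and Egr2 of -1.31 ± 0.38, against log2 fold changes between the sides of -0.65 and -0.27. Between the sides themselves 4 of the 18 were called lower, among them Dusp1 at -0.60 and Jun at -0.28. GFP control 10 was the highest of the 11 in reactive astrocyte markers, at 48146 normalized counts, and in oligodendrocyte markers, at 303776. ZBTB7A stress 17 and ZBTB7A control 14 came next in reactive astrocyte markers, at 36282 and 30363, and the rest of the 11 had 7852 to 16656. Without GFP control 10, 42 genes passed the adjusted threshold for the slope. The part of these libraries in the glial slopes was not tested.

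**Figure D4:**
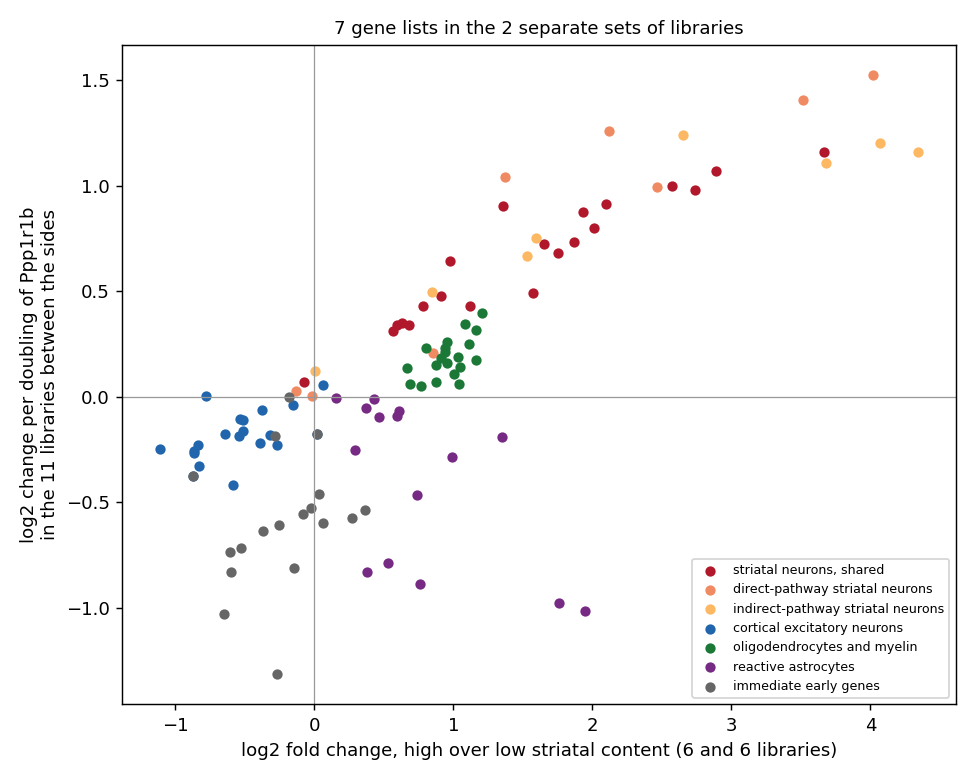
Members of 7 gene lists by their log2 fold change between the sides (x axis, 6 high over 6 low libraries) and by their log2 change per doubling of Ppp1r1b in the 11 libraries between (y axis). Striatal genes lie mostly at the upper right, cortical excitatory genes mostly at the lower left, and reactive astrocyte genes lie right of 0 but at or below 0 on the y axis.

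Treatment was held fixed by comparing the sides within label groups, which use the same libraries and so describe the calls. ZBTB7A control (1 high, 1 low), GFP stress (1 and 4) and GFP control (2 and 1) held both sides. Of the 1279 higher genes 1001 were above 0 in all 3 groups (78.3%), and of the 1167 lower genes 960 were below 0 in all 3 (82.3%). Of all genes tested, 37.9% had in all 3 groups the sign of their own fold change between the sides. Over the 41 called members of the striatal lists the median log2 difference was 2.45 in ZBTB7A control, 1.70 in GFP stress and 0.58 in GFP control, the group that holds GFP control 1 and GFP control 11. Drd2 differed by 4.03, 4.85 and 0.92 in these groups, and Gria4 by -0.58, -0.63 and -0.38. With label group as a covariate the limma fit called 779 genes higher (4.75%) and 775 lower (4.73%). Title numbers run through the label groups in 3 passes, and with the pass as a covariate 1495 genes were called. High libraries had title numbers from 2 to 13 and low libraries from 1 to 21, so no high library came from the third pass (19 to 26). Side and pass could therefore not be fully told apart.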

How the data were processed

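Bulk RNA-seq of polyadenylated RNA was analysed from the authors' deposited table of normalized counts, a signal of reads divided by 1 size factor per library. RNA came from Trizol and RNeasy Micro extraction with TruSeq RNA v2 libraries, per the labels' protocols. The submitters' processing notes name 3 tools, the aligner HISAT2 (2.1.0), the read counter featureCounts (2.0.1) and DESeq2 (2.11.40.6), with the builds mm10 and mm9 given no role, so gene coordinates are given for RefSeq promoter sequences only. Values in each library were whole multiples of 1 step within 0.02 reads, so whole reads were recovered. They carry no length correction, and levels are compared between libraries, not genes. Of 27606 rows, 428 repeats were removed, leaving 27178 genes, of which 4174 were at 0 in all libraries.

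The sides were tested with limma 3.58.1 (R 4.3.3) on log2(value + 1), with trended and robust empirical Bayes and no covariate. The slope on log2 Ppp1r1b in the 11 other libraries used the same settings. Errors on log2 fold changes and slopes are SE, and tests were two-sided. Recovered reads were also tested with DESeq2 1.42.0 and with edgeR 4.0.16. Further alternatives were TMM scaling, adding 5 in place of 1, dropping the filter or asking for a mean of at least 50, non-robust fitting, 4 or 8 libraries a side, ranking by another marker, covariates, all 23 libraries and each library left out. The fit was run on simulated data with planted changes, in which genes otherwise varied independently. That setting lacks shifts shared by many genes, so it gives no error rate for these data. Named genes were Zbtb7a, Gfap, the striatal markers, up to 4 called members of smallest p in each striatal list and 2 in each other list, and 8 genes each way in no list. Other members of the lists are quoted as examples chosen after their values were seen. The members and the 36 lists, with 485 tested symbols, were chosen with earlier results of these data known. Nothing in the labels says that each library came from a separate mouse, so a p-value here reflects the spread between samples, which may be technical. Some members of the lists are counted but not reported here by name.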

Additional observations from a re-analysis of the deposited data

Results flagged for a closer look

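Of 162 sets of 6 libraries checked (a named gene on a side), 16 held a library whose gap to its nearest neighbour, as a share of the range, was over Dixon's critical value. That value is passed about 1 in 20 times by independent, normally distributed values. The sides were cut by Ppp1r1b and most of these genes were chosen from the calls between them, so the count of 16 carries no test. On the high side, ZBTB7A control 6 had the lowest value for 3 cortical or unlisted genes: Cbln2 at 194 normalized counts against 442 to 659 in the other 5 libraries, Medag at 62.9 against 192 to 339, and Nrn1 at 804 against 1756 to 2553. Gfap on the high side was 4329.6 in GFP control 11, against 11271 to 18044 in the others.

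On the low side, GFP control 1 stood apart in 11 genes. Striatal projection neuron genes were high there, with Penk at 7149.9 normalized counts against 1115 to 2187 in the other 5 libraries, Tac1 at 1020.2 against 293 to 460, Adcy5 at 7645 against 3774 to 4871 and Kcnip2 at 877 against 681 to 731. Cholinergic genes were high there too, with Chat at 169 against 6.4 to 12.1, Slc18a3 at 81.9 against 5.72 to 12.1, Ecel1 at 942 against 66.7 to 111 and Slc5a7 at 329 against 14.3 to 44.7. Clic6 was 410.0 against 10.4 to 23.8, Rem2 was 293 against 86.8 to 128, and A830082K12Rik was lower at 170.0 against 211 to 241. Sox9, a transcription factor of astrocytes, was 1185 in GFP stress 5 against 902 to 994 in the other low libraries.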

How the results depend on the processing

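The 2446 calls (1279 higher, 1167 lower) stayed within 1.5 times under another pseudocount, filter, scaling, count tool, non-robust fitting and 4 or 8 libraries a side. Ranking by Adora2a gave 1536 (814 higher, 722 lower) and label groups as covariates 1554 (779 and 775). With title-number pass as a covariate 1495 were called, 631 of them lower. All 23 libraries gave 4109 in 3 groups (1997 and 2112) and 5156 as a slope (2479 and 2677). Without GFP control 1 and GFP control 11 the count was 4987 (2623 and 2364). Leaving out a library gave 1168 to 3556 calls in all (672 to 1868 higher, 496 to 1688 lower), and was lower by over 1.5 times without ZBTB7A control 6 (1386), ZBTB7A stress 7 (1358), GFP stress 12 (1267) or GFP stress 20 (1168). Of the calls, 1085 were made in all 12 of these fits. Ranking by Penk or Pde10a gave 2965 calls, of which 1245 were shared, 50.9% of the main calls and 42.0% of theirs. The slope count of 1 ranged from 1 to 42 on leaving out a library, as 42 passed without GFP control 10, 4 on dropping ZBTB7A control 24 and 2 on dropping ZBTB7A control 14, and was 0 in limma with label groups as covariates, where 1002 had an unadjusted p under 0.05. The 3 marker differences kept their direction and call under all 45 alternatives, at 2.19 to 5.16. Zbtb7a, which was not called, changed sign to -0.084 when ranked by Penk, -0.084 by Pde10a, -0.033 by Adora2a and -0.0054 without GFP control 1 and GFP control 11. Of 78 named calls, 59 held in every leave-out; those lost included the named astrocyte, microglial, mural, endothelial, striosome, ribosomal, ependymal and choroid plexus genes. The cause of these changes was not tested. No paired analysis was possible because no title number is shared between groups. Genes that reached 10 normalized counts in fewer than 5 libraries were left out except where no filter was set.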

Other observations

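Among lists not described above, oligodendrocyte precursor genes were called higher in 4 of 11 members, with a median log2 fold change of 0.22. Olig1, a lineage factor of these cells, had 2897, 3508 and 3957 normalized counts (lowest, median and highest) on the high side and 1873, 2269.6 and 3028 on the low side, a log2 fold change of 0.58 ± 0.12 (adjusted p = 0.0094, limma). Pdgfra, the receptor that defines precursor cells, did not pass at 0.06. With label groups as covariates none of the 11 was called, and Olig1 had an adjusted p of 0.0653 (limma). Microglial genes were called higher in 2 of 16 members, against 7.81% of all genes. These were the complement genes C1qa and C1qc at 0.55 and 0.54, and both calls were lost on leaving out several libraries. With label groups as covariates both were called (adjusted p = 0.0489 and 0.0367, limma). When GFP control 1 and GFP control 11 were left out, 8 of the 16 were called higher. Cytosolic ribosomal protein genes were called higher in 3 of 20 members with a median of 0.13, against 7.81% of all genes. Without GFP control 1 and GFP control 11, 15 of those 20 were called higher. That repeat called 2623 of all 16384 genes higher.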
